A study of Mus musculus with 18 samples.

Results

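Transcripts of 10 mouse genes were followed through every sample: the type I collagen chains Col1a1 and Col1a2, the type III chain Col3a1, the type V chains Col5a1, Col5a2 and Col5a3, the type VI chains Col6a1, Col6a2 and Col6a3, and the lysyl oxidase Lox. They were chosen by name, and each matched 1 row of the 54752 genes in the count table. The study compared mouse ovarian cancer cells with and without B7-H3, an immune checkpoint protein of the B7 family encoded by Cd276. The 6 groups had 3 libraries each: intradermal HM-1 tumors labelled Cd276KO and their control tumors, ID8 cultures labelled Cd276KO and their control cultures, and HM-1 cultures labelled Cd276KO and their control cultures. Tumors were taken on day 10 from B6C3F1 mice, so a tumor library mixes RNA of HM-1 cells with RNA of host cells, and neither a Cd276 change nor pooling of hosts is given in the labels. HM-1 carried the strain label B6C3F1, whereas ID8 carried C57BL6 and grew in another medium, so line, strain and medium cannot be told apart in a comparison of the lines.

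Type I, III and V collagens are fibril-forming: 3 chains wind into a triple helix, and type V molecules set the start and width of fibrils built from types I and III. Type VI collagen makes beaded microfibrils around cells from an alpha-1, an alpha-2 and an alpha-3 chain, and Lox oxidises lysines so that collagen molecules become cross-linked. Fibroblasts and other mesenchymal cells are the usual main source of these transcripts in a tumor, and many epithelial cells make little of them.

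The libraries held 17349082 to 30959773 counts, and levels are given as CPM, counts scaled to a library total of 1000000, as mean ± SD with n = 3 where not given per library. The 10 genes took 0.109% to 2.21% of the counts in tumors and 0.0152% to 0.132% in cultures. Cd276 averaged 46.6 ± 1.5 CPM in HM-1 cultures labelled Cd276KO and 86.4 ± 10.6 CPM in their controls, but 19.4 ± 1.4 CPM in ID8 cultures labelled Cd276KO and 20.9 ± 0.3 CPM in their controls, so in ID8 the transcript was not lower beyond the spread (log2 fold change -0.04, SE 0.08, edgeR adjusted p = 0.692). In tumors it averaged 86.6 ± 12.3 CPM with the Cd276KO label and 122 ± 18 CPM without it. A total count over the gene cannot show whether the protein was lost, and the number of clones behind each label was not given in the sources used here. A list of 8 ovarian epithelial markers, Krt8 and Krt18 among them, summed to 3519 to 5622 CPM in tumors and 2682 to 6329 CPM in cultures, while Epcam was at 0 in the 6 HM-1 cultures. Replicates are labelled biological, without saying whether they were separate cultures or mice, and the tests can only speak for the variation among the libraries at hand. HM-1 control culture 1 stood apart from control cultures 2 and 3 (chi-square per gene 65.0 and 63.9, against 1.57 between the other two), and control tumor 3 stood apart from control tumors 1 and 2 (134 and 81.3, against 41.1 between the other two). For the 10 genes, a call or direction that changes on leaving out either of these libraries is given with and without it.

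Neither line in culture expressed a full set of chains. Control ID8 cultures had 293 ± 23 CPM of Col1a1 and 0.795 ± 0.283 CPM of Col1a2, its partner in type I collagen. Per length of transcript (RPKM, CPM per kilobase of the principal transcript), Col1a1 stood at 243 to 559 times Col1a2 in these 3 libraries. Control HM-1 cultures had hardly any of either chain, with 0.864 ± 0.195 CPM of Col1a1 and 0.0782 ± 0.0356 CPM of Col1a2, the second from 5 counts over the group. Col3a1, whose product forms homotrimers, was the one fibrillar chain with a similar level in the lines: 143, 124 and 139 CPM in control ID8 cultures and 123, 167 and 161 CPM in control HM-1 cultures. The groups overlapped for Col3a1, and for none of the other 9 genes that had a call, where 67.2% of all genes had groups without overlap.

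The type V and type VI chains were divided between the lines. Control ID8 cultures had 173 ± 6 CPM of Col5a2 and 159 ± 5 CPM of Col5a1, against 1 count of Col5a2 over the group and 8.08 ± 1.82 CPM of Col5a1 in control HM-1 cultures. Col5a3, another type V chain, had 5 counts over the 3 control ID8 libraries and 14.8 ± 2.3 CPM in control HM-1 cultures. For type VI, Col6a1 averaged 130 ± 14 CPM and Col6a2 24.5 ± 2.9 CPM in control ID8 cultures, against 0.720 ± 0.132 CPM and 1 count over the group in control HM-1 cultures. Col6a3 went the other way, with 8 counts over the control ID8 libraries and 17.6 ± 7.4 CPM in control HM-1 cultures. Lox averaged 361 ± 11 CPM in control ID8 cultures and had 1 count in all in control HM-1 cultures.

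In the test of control ID8 against control HM-1 cultures, 9 of the 10 genes differed, 7 higher and 2 lower in ID8 (7 higher and 3 lower without HM-1 control culture 1), where 58.3% of all genes tested did, 28.8% higher and 29.6% lower (edgeR's quasi-likelihood test, Benjamini-Hochberg adjusted p under 0.05, called here and below). Col1a1 was higher by 8.35 on the log2 scale (SE 0.18, adjusted p = 2.8e-08), Col6a1 by 7.43 (SE 0.17, adjusted p = 3.22e-08) and Col5a1 by 4.25 (SE 0.16, adjusted p = 2.62e-07). Col5a3 was lower (log2 fold change -7.89, SE 0.41, adjusted p = 1.27e-06), and so was Col6a3, at -7.51 (SE 0.52, adjusted p = 6.86e-06). For genes with 1 count in HM-1 the ratio of levels has a wide 95% counting interval: 24125 for Lox (4329.6 to 952904), 11542 for Col5a2 (2071 to 455903) and 1620.2 for Col6a2 (290.5 to 64024). Col3a1 did not pass the test (log2 fold change -0.19, SE 0.13, adjusted p = 0.241), and without HM-1 control culture 1 it did (-0.31, adjusted p = 0.000348). Col1a2 was higher by 3.29 (SE 0.52, adjusted p = 0.000911), from 68 against 5 counts, and was not called in a fit over all 18 libraries (adjusted p = 0.261).

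**Figure D1:**
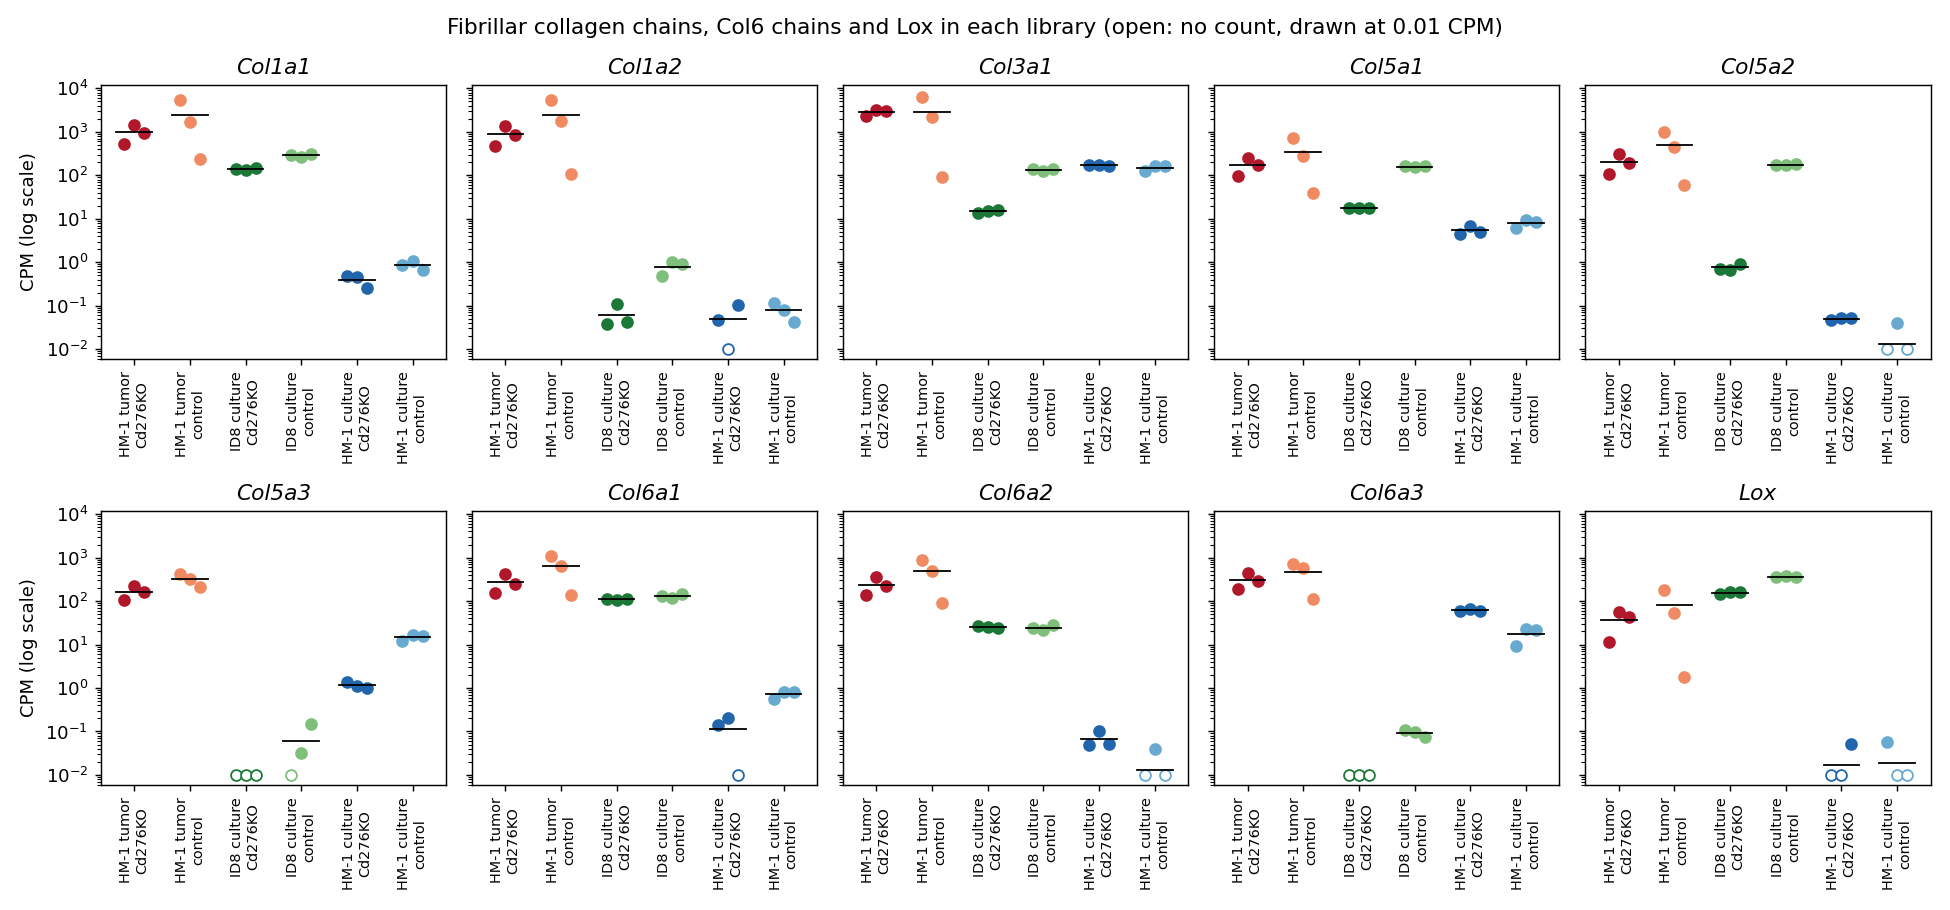
CPM of each gene in each library on a log axis, with 3 points and a bar at the mean for each group, and open points at 0.01 CPM for libraries without a count. ID8 cultures lie above 100 CPM for Col1a1, Col6a1 and Lox and at or near 0 for Col5a3 and Col6a3, HM-1 cultures lie above 100 CPM for Col3a1 alone, and every tumor library has all 10 genes.

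Sequences around the starts of these genes are shown for one gene of each contrast: Col3a1 and Col6a3, which HM-1 cultures expressed, beside Col1a2 and Col6a2, of which they had 5 counts or fewer over the control group. RefSeq promoters (GRCm38.p6, 250 bases before and 50 after the start) matched 7 of the 10 genes, with no entry for Col1a1, Col5a2 or Lox. Each is written 5′ to 3′ on the gene's strand with capitals for the motifs searched on both strands: CCAAT, the TATA-type TATAAA and the GC box GGGCGG. These motifs occur in 37.4%, 13.6% and 35.7% of the 32851 promoters of that table.
Col3a1: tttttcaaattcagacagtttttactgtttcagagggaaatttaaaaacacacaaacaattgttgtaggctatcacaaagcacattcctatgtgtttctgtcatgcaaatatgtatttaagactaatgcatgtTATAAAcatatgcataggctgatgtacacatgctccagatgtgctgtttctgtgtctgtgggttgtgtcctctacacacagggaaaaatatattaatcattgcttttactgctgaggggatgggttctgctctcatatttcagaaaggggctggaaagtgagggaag
Col6a3: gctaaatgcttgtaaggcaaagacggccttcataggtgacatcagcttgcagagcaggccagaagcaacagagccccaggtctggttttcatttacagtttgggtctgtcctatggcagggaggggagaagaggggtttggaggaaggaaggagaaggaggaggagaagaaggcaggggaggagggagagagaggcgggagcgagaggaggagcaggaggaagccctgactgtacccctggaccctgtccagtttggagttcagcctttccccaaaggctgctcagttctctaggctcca
Col1a2: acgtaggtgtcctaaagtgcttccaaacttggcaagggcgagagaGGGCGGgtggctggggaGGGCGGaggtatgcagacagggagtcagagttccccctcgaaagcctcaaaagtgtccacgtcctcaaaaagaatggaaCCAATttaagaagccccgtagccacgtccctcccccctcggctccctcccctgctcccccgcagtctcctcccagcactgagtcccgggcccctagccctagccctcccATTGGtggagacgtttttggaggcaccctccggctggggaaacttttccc
Col6a2: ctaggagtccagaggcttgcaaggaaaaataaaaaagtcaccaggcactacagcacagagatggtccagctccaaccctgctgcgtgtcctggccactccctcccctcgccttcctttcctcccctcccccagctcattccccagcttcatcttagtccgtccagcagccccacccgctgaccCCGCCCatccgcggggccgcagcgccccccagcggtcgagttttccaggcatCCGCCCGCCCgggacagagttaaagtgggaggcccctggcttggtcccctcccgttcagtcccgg
The Col3a1 window (chr1:45311288-45311587, plus strand) was 37.7% G and C and held TATAAA from position -117 relative to the start, with neither of the other motifs. The Col6a3 window (chr1:90843922-90844221, minus strand), at 56.3% G and C, held none of the 3. The Col1a2 window (chr6:4505368-4505667, plus strand), at 61.0% G and C, held GGGCGG from -205 and -188 and CCAAT from -109, and the reverse complement ATTGG from position 1. This window lies inside the Col1a2 gene as annotated in GENCODE M21, which begins at 4504814. The first of 2 Col6a2 entries (chr10:76623355-76623654, minus strand), at 64.3% G and C, held the reverse complement CCGCCC from -67, -15 and -11, the last 2 sharing bases. Most of this window also lies inside the annotated gene, whose minus-strand start is at 76623630. Among the other windows, Col5a1 and Col5a3 held GGGCGG, Col5a3 also CCAAT, and Col6a1 none of the 3. In control HM-1 cultures Col5a1, Col5a3 and Col6a1 averaged 8.08, 14.8 and 0.720 CPM. The motifs therefore did not divide the genes by their level in HM-1 cultures, and a link between motif and level was not tested.

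The genes also differ in where they lie. Col3a1 (chromosome 1, 45311538 to 45349706, plus strand) and Col5a2 (chromosome 1, 45374321 to 45503282, minus strand) are neighbours with their ends facing each other, 24614 bases apart in GENCODE M21 on GRCm38. In control HM-1 cultures the first had 150 ± 24 CPM and the second 1 count over the group, whereas control ID8 cultures had 135 ± 10 and 173 ± 6 CPM. Col6a2 (chromosome 10, 76595762 to 76623630) and Col6a1 (76708792 to 76726168) lie on the minus strand, 85161 bases apart. Both were high in ID8 and both had under 1 CPM in HM-1 cultures. The others have none of the 10 genes beside them: Col1a1 on chromosome 11 (94936224 to 94953042, plus strand), Col1a2 on chromosome 6 (4504814 to 4541544, plus strand), Col5a1 on chromosome 2 (27886425 to 28039514, plus strand), Col5a3 on chromosome 9 (20770050 to 20815067, minus strand), Lox on chromosome 18, and Col6a3 on chromosome 1 (90765923 to 90843971, minus strand), away from the Col3a1 pair. Col3a1, Col5a1 and Lox share exon bases with noncoding genes (Gm47302 on the same strand, 2810430I11Rik and Gm13372 antisense, and AC161119.1 antisense), whose reads cannot be told apart without the strand setting.

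In ID8 cultures the Cd276KO label went with a lower level of 6 of the 8 genes tested and a higher level of none. Of all genes tested, 60.7% were called, 29.4% higher and 31.3% lower, and 64.3% had groups without overlap. The type V chain Col5a2 differed most: 0.709, 0.676 and 0.932 CPM in cultures labelled Cd276KO, against 173, 168 and 180 CPM in controls. All 3 labelled libraries lay under 1 CPM, and the log2 difference was -7.74 (SE 0.10, adjusted p = 1.93e-24). The other chain of the usual type V molecule, Col5a1, had 17.4, 17.4 and 17.7 CPM in cultures labelled Cd276KO and 164, 154 and 160 CPM in controls (log2 fold change -3.11, SE 0.06, adjusted p = 7.53e-21). Per length, Col5a1 therefore stood at 18.2 ± 2.9 times Col5a2 with the label and at 0.724 ± 0.024 times Col5a2 without it.

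Col3a1 had 13.9, 15.2 and 15.8 CPM in ID8 cultures labelled Cd276KO, against 143, 124 and 139 CPM in controls (log2 fold change -3.10, SE 0.08, adjusted p = 1.8e-19). The difference was smaller for Col1a1, with 138 ± 8 CPM with the label and 293 ± 23 CPM without it (log2 fold change -1.01, SE 0.07, adjusted p = 7.31e-12), and for the cross-linking enzyme Lox, with 156 ± 7 and 361 ± 11 CPM (-1.14, SE 0.06, adjusted p = 5.42e-14). No library of one group reached the other group for these genes. Col1a2 fell as well (-3.49, SE 0.54, adjusted p = 7.84e-06), from 5 counts with the label against 68 in controls. In a fit over all 18 libraries Col1a1, Col1a2 and Lox were no longer called (adjusted p = 0.268, 0.310 and 0.327). That fit shares a spread for each gene between cultures and tumors. Control tumors ran from 240.2 to 5295 CPM for Col1a1 and from 1.82 to 184 CPM for Lox. The part of this spread in the lost calls was not tested.

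None of the type VI chains of ID8 was called. Col6a1 had 112, 107 and 114 CPM in cultures labelled Cd276KO, against 130, 116 and 144 CPM in controls, which did not overlap but missed the threshold (log2 fold change -0.15, SE 0.07, adjusted p = 0.0592). It was called without ID8 control culture 2 (-0.24, adjusted p = 0.00315) and with library totals as scaling (-0.23, adjusted p = 0.00599). A fit with the replicate numbers as a block also called Col6a1 lower. Col6a2 had 26.6, 25.7 and 24.4 CPM with the label and 24.2, 21.7 and 27.5 CPM without it, with overlapping groups (0.14, SE 0.08, adjusted p = 0.153); without ID8 control culture 3 it was called, at 0.25 (adjusted p = 0.00942). Col5a3 and Col6a3 were too low to test. Col5a3 had 0 counts with the label and 5 in controls, 1.54-fold lower when 3 counts over the group stand for the 0. Col6a3 had 0 and 8 counts, 2.47-fold lower on the same terms. Both folds take the control counts as exact. They leave out the counting error of the controls and the variation between cultures, so they are not lower bounds. Beside the collagens, the fibroblast marker list summed to 224 to 228 CPM in ID8 cultures labelled Cd276KO and 111 to 114 CPM in controls. Of its 8 markers Dcn was higher with the label (log2 fold change 1.23) and Pdgfra lower (-1.01, SE 0.11, adjusted p = 3.83e-08), the other 6 were too low to test, and Fap, Thy1, Lum and Cd34 were at 0 in all 6 libraries. The pericyte and smooth muscle list summed to 2.63 to 3.36 CPM with the label and 24.3 to 29.4 CPM in controls. Their part in the collagen values was not tested.

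In HM-1 cultures the Cd276KO label went with a higher level of Col6a3 and a lower level of Col5a3. Of the 6 genes tested 4 were called, 1 higher and 3 lower, against 27.7% of all genes tested (11.6% higher and 16.1% lower), and 53% of all genes had groups without overlap. Without control culture 1 all 6 were called, 2 higher and 4 lower, in a fit that called 7491 of 12685 genes. Col6a3 had 58.5, 65.4 and 60.5 CPM in cultures labelled Cd276KO, against 9.08, 22.7 and 21.1 CPM in controls, without overlap (log2 fold change 1.84, SE 0.30, adjusted p = 0.0055). The lowest of these values is from control culture 1. Without a filter on low counts the adjusted p was 0.0531, and without control culture 1 the log2 fold change was 1.54 (adjusted p = 1.25e-23). Col5a3 had 1.38, 1.13 and 0.980 CPM with the label, against 12.2, 16.7 and 15.3 CPM in controls (-3.62, SE 0.18, adjusted p = 4.97e-05), again without overlap.

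The other calls in HM-1 cultures came from few counts. Col6a1 had 3, 4 and 0 counts in cultures labelled Cd276KO, against 10, 20 and 19 in controls (log2 fold change -2.54, SE 0.57, adjusted p = 0.0179), and was not called without Cd276KO culture 1 (adjusted p = 0.0704), without control culture 2 (0.0504) or in the fit over 18 libraries (0.257). Col1a1 had 10, 9 and 5 counts with the label and 15, 27 and 16 in controls (-1.06, SE 0.32, adjusted p = 0.0499). That call was lost with DESeq2 (adjusted p = 0.140), with RLE scaling (0.0508), without the filter on low counts (0.0604), in the fit over 18 libraries (0.660) and on leaving out any of 5 of the 6 libraries (up to 0.158). Col3a1, the most abundant of the 10 genes per length in HM-1 cultures, had 170, 173 and 167 CPM with the label and 123, 167 and 161 CPM without it, without overlap, and did not pass (0.22, SE 0.12, adjusted p = 0.199). Without control culture 1 it passed at 0.11 (adjusted p = 0.0192). Col5a1 averaged 5.40 ± 1.13 and 8.08 ± 1.82 CPM, with overlap, and did not pass (-0.55, SE 0.21, adjusted p = 0.0991), whereas without control culture 1 it did (-0.70, adjusted p = 1.13e-05), and so it did without the filter on low counts (-0.56, adjusted p = 0.0338). Col1a2, Col5a2, Col6a2 and Lox had 3, 3, 4 and 1 counts over the cultures labelled Cd276KO and 5, 1, 1 and 1 over controls, and were not tested. The fibroblast marker list summed to 91.7 to 105 CPM in HM-1 cultures labelled Cd276KO and 37.4 to 42.8 CPM in controls. Nearly all of it was Cd34, which was higher with the label (97.7 ± 6.6 and 38.6 ± 2.6 CPM, log2 fold change 1.38, SE 0.09, adjusted p = 0.000102), while Pdgfra was lower (-4.30, SE 0.49, adjusted p = 0.00127). The other 6 markers were too low to test, with Dpt at 0 in all 6 libraries, and the part of these markers in the collagen values was not tested.

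The label effect differed between the lines for 4 genes, in an interaction term over the 12 culture libraries that called 40.4% of genes, 19.8% above 0 and 20.7% below. The ID8 effect minus the HM-1 effect was -9.24 on the log2 scale for Col5a2 (SE 1.19, adjusted p = 5.53e-05), where HM-1 had 4 counts in all. It was -3.33 for Col3a1 (SE 0.15, adjusted p = 6.73e-09), -2.56 for Col5a1 (SE 0.21, adjusted p = 9.46e-07) and 2.39 for Col6a1 (SE 0.49, adjusted p = 0.00186). In the fit over all 18 libraries Col3a1 was still called (adjusted p = 0.0333), and Col5a1, Col5a2 and Col6a1 were not (0.0537, 0.322 and 0.305). Col6a3 missed the threshold (-6.05, SE 2.35, adjusted p = 0.0606) and passed without HM-1 control culture 1 (-5.80, adjusted p = 0.000167), with 8 counts over the ID8 libraries. For Col1a1, lower with the label in both lines, the difference was 0.04 (SE 0.25, adjusted p = 0.933).

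**Figure D2:**
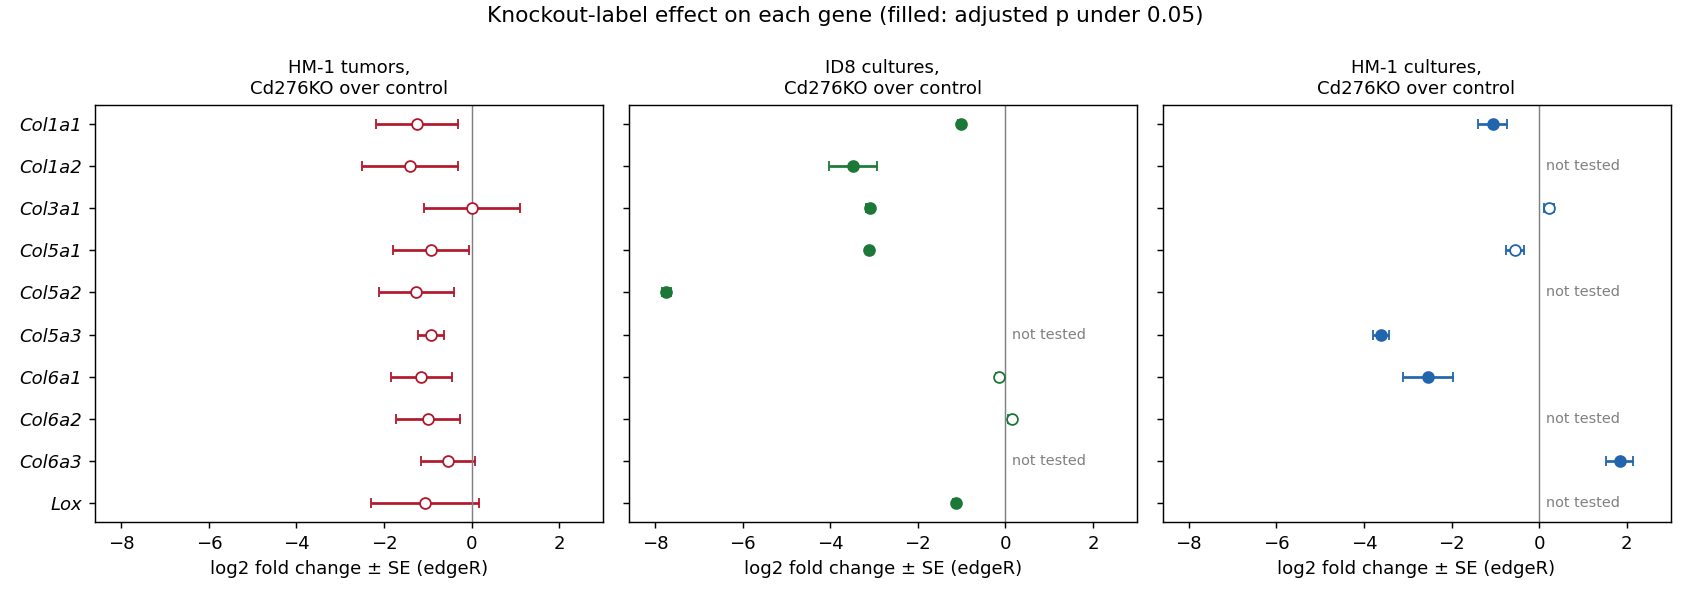
Log2 fold change of each gene, Cd276KO label over control, with its SE from edgeR, in HM-1 tumors, ID8 cultures and HM-1 cultures, filled where the adjusted p is under 0.05. In ID8 Col5a2 lies at -7.74 with 5 other filled points to the left of 0, in HM-1 cultures Col6a3 lies at 1.84 and Col5a3 at -3.62, and in tumors no point is filled.

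HM-1 tumors expressed all 10 genes, including those nearly absent from HM-1 cultures. Between control tumors and control HM-1 cultures all 10 were called higher, where 25.3% of all genes were higher and 41.8% were called. Without control culture 1 the count was 8, without control tumor 3 it was 10, and without the filter on low counts it was 7. Col1a1 had 5295, 1689 and 240.2 CPM in control tumors, against 0.851, 1.06 and 0.676 CPM in control cultures (log2 fold change 11.28, SE 1.37, adjusted p = 0.00121). Col6a1 had 1086, 658 and 135 CPM in control tumors, against 0.567, 0.789 and 0.803 CPM in control cultures (9.59, SE 0.93, adjusted p = 0.000578). The lowest tumor lay above every culture for 9 of the genes, and 55.8% of all genes had groups without overlap. A lower or higher level in a tumor can come from the number of cells of a type or from RNA per cell, which cannot be told apart in bulk samples.

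Chains that HM-1 cells themselves expressed had smaller log2 differences. The culture level that sets these chains apart is also the level divided by, so the contrast follows from the grouping. Col5a3 was higher in control tumors by 4.30 on the log2 scale (SE 0.28, adjusted p = 0.000161), Col6a3 by 4.59 (SE 0.72, adjusted p = 0.00283) and Col5a1 by 5.28 (SE 0.98, adjusted p = 0.00538). Col3a1 had 6379, 2220 and 90.5 CPM in control tumors, against 123, 167 and 161 CPM in control cultures: control tumor 3 lay below all 3 cultures. Its log2 fold change of 4.12 (SE 1.22, adjusted p = 0.0309) was not called when any library but control tumor 3 was left out (adjusted p = 0.0632 to 0.109), nor without the filter on low counts (0.176). Lox was at 184, 52.2 and 1.82 CPM in control tumors against 1 count in control cultures (ratio of levels 5830, 95% counting interval 1046 to 230299). That interval covers counting error and not the spread between tumors. The call of Lox was lost without control culture 1 (adjusted p = 0.058).

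Tumors labelled Cd276KO were likewise higher than Cd276KO cultures for all 10 genes, where 75.7% of all genes were called, 41.2% higher and 34.5% lower. The groups overlapped for none of the 10, and 78.8% of all genes had no overlap. Col3a1 had 2289, 3123 and 2963 CPM in these tumors, against 170, 173 and 167 CPM in the cultures (log2 fold change 3.90, SE 0.12, adjusted p = 6.37e-08). Col6a3 had the smallest log2 fold change, with 192, 448 and 291 CPM against 58.5, 65.4 and 60.5 CPM (2.20, SE 0.29, adjusted p = 0.000596). Col5a3 differed by 6.99 (SE 0.36, adjusted p = 4.74e-06) and Col1a1 by 11.08 (SE 0.62, adjusted p = 1.26e-05).

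Between tumors labelled Cd276KO and control tumors no gene of the 10 was called, and the groups overlapped for all 10. Of all genes tested 5.38% were called, 2.2% higher and 3.18% lower, and 34.8% had groups without overlap. DESeq2 called 1, Col5a3 (log2 fold change -0.93, adjusted p = 0.0287), and 1 had an unadjusted p under 0.05 with edgeR, again Col5a3 (-0.93, SE 0.31, adjusted p = 0.123). It had 107, 220 and 164 CPM in tumors labelled Cd276KO and 425, 326 and 210 CPM in control tumors. Fitted differences of the others ran from -1.41 for Col1a2 (SE 1.10, adjusted p = 0.475) to 0.02 for Col3a1 (SE 1.10, adjusted p = 0.995), differences that this spread between tumors could not resolve.

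The spread came mainly from the control tumors. Col1a1 had 526, 1452 and 948.4 CPM in tumors labelled Cd276KO, against 5295, 1689 and 240.2 CPM in control tumors. Summed over the 10 genes, the highest tumor stood at 1.96 times the lowest among those labelled Cd276KO and at 20.3 times among controls, where tumor 1 was highest and tumor 3 lowest. Without control tumor 1 the log2 fold change of Col1a1 was 0.06, and without control tumor 3 it was -1.77, with no call either way. For Col3a1 the uncalled value of 0.02 became -0.55 without control tumor 3 (adjusted p = 0.423).

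The only gene whose label effect differed between tumors and cultures of HM-1 was Col5a3, in an interaction term that called 2.84% of genes, 1.72% above 0 and 1.12% below. Its effect was -0.93 in tumors and -3.62 in cultures, a difference of 2.68 (SE 0.46, adjusted p = 0.0105). For Col6a3 the difference was -2.41 (SE 0.79, adjusted p = 0.162), and without control tumor 3 it passed at -2.87 (adjusted p = 0.00618).

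Markers of mesenchymal cells also varied between tumors. The fibroblast list of 8 markers (Pdgfra, Dpt, Fap, Thy1, Dcn, Lum, Fbln1 and Cd34) summed to 445, 665 and 664 CPM in tumors labelled Cd276KO and to 1074, 307 and 114 CPM in control tumors, with all 8 detected in each. Dcn and Lum are also counted below among genes of the collagen pathway. Cd34 was also expressed in HM-1 cultures, where it made up nearly all of the list. The culture sums were 91.7 to 105 CPM with the label and 37.4 to 42.8 CPM in controls. Cd34 was called lower in tumors labelled Cd276KO than in Cd276KO cultures. The share of HM-1 cells in the tumor sums was not tested. The pericyte and smooth muscle list of 6 summed to 486, 801 and 635 CPM in tumors labelled Cd276KO and to 926, 554 and 291 CPM in control tumors. Endothelial markers summed to 123, 190 and 152 CPM with the label and to 251, 148 and 63.8 CPM in control tumors. Leukocyte markers summed to 313 to 639 CPM with the label and 810 to 1330 CPM in controls, without overlap. In control tumors these 4 lists ran highest in tumor 1 and lowest in tumor 3, the order of Col1a1, Col3a1 and Lox. The list of ovarian epithelial markers ran the other way, at 3890, 4286.5 and 5622 CPM in control tumors 1, 2 and 3. Skeletal muscle markers summed to 85.4, 699 and 649 CPM with the label, against 120, 0.703 and 1.20 CPM in controls, and keratinocyte markers reached 199.8 CPM in control tumor 3 against 6.94 to 7.49 CPM in the other 5 tumors. Their part in the collagen values was not tested. In control HM-1 cultures Dpt, Fap and Thy1 were at 0 in every library, yet the fibroblast list summed to 37.4 to 42.8 CPM, nearly all Cd34. In control ID8 cultures Fap, Thy1, Lum and Cd34 were at 0 in every library. There the list summed to 111 to 114 CPM, most of it Dcn (98.9 ± 0.7 CPM).

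**Figure D3:**
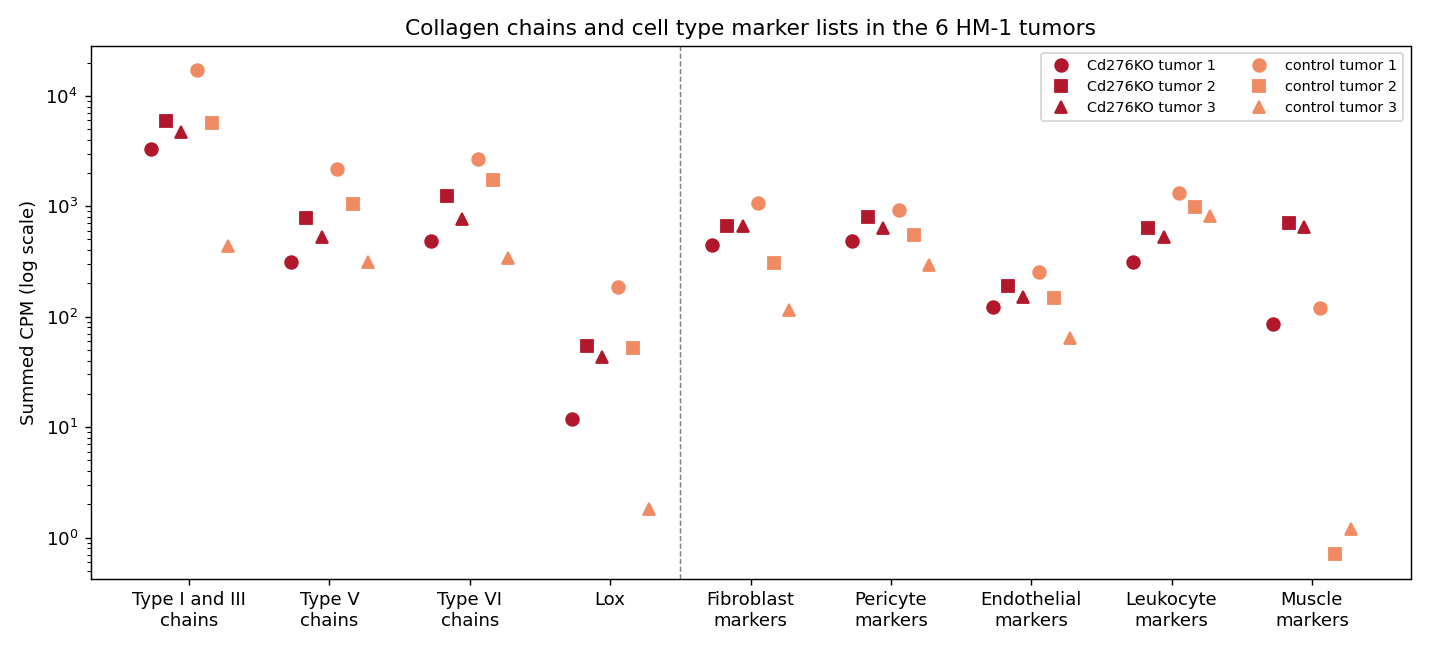
Summed CPM on a log axis of the collagen classes, Lox and 5 lists of cell type markers in the 6 HM-1 tumors, with a colour for each group and a shape for each tumor number. Control tumor 1 is highest and control tumor 3 lowest in each collagen class, with fibroblast sums of 1074 and 114 CPM, and tumors labelled Cd276KO differ 1.96-fold in the sum of the 10 genes. The fibroblast list includes Cd34, which HM-1 cultures also expressed.

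Partner chains were set against each other per length of transcript. Col1a1 stood at 1.02, 0.972 and 1.03 times Col1a2 in tumors labelled Cd276KO and at 0.883, 0.857 and 1.99 times in control tumors, the last being control tumor 3. Type I collagen is built from alpha-1 and alpha-2 chains in unequal numbers, and a transcript ratio does not give the protein ratio. Col3a1 stood at 4.64, 2.29 and 3.33 times Col1a1 in tumors labelled Cd276KO and at 1.28, 1.40 and 0.401 times in control tumors. These groups did not overlap. Neither did Col5a1 over Col5a2, at 0.661 to 0.722 with the label and 0.502 to 0.572 in controls, nor Col6a1 over Col6a2, at 1.06 to 1.11 and 1.16 to 1.44.

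For each of these 3 ratios the exact two-sided permutation p was 0.1, the smallest that 3 tumors against 3 can give, and the adjusted p over the 5 ratios examined was 0.167, so none passed. Col6a3 over Col6a2 overlapped, at 0.542 to 0.616 with the label and 0.347 to 0.549 in controls (exact permutation p = 0.2, adjusted p = 0.25). The ratios were picked for comparison after the values had been seen. With the length of all exons joined, Col1a1 over Col1a2 became 2.04 to 2.16 with the label and 1.80 to 4.17 in controls. The level of a ratio thus depends on the length used. Col3a1 over Col1a1 became 1.44 to 2.91 with the label and 0.252 to 0.879 in controls. A change of length multiplies a ratio by the same factor in every library, so it cannot change the order of the groups.

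**Figure D4:**
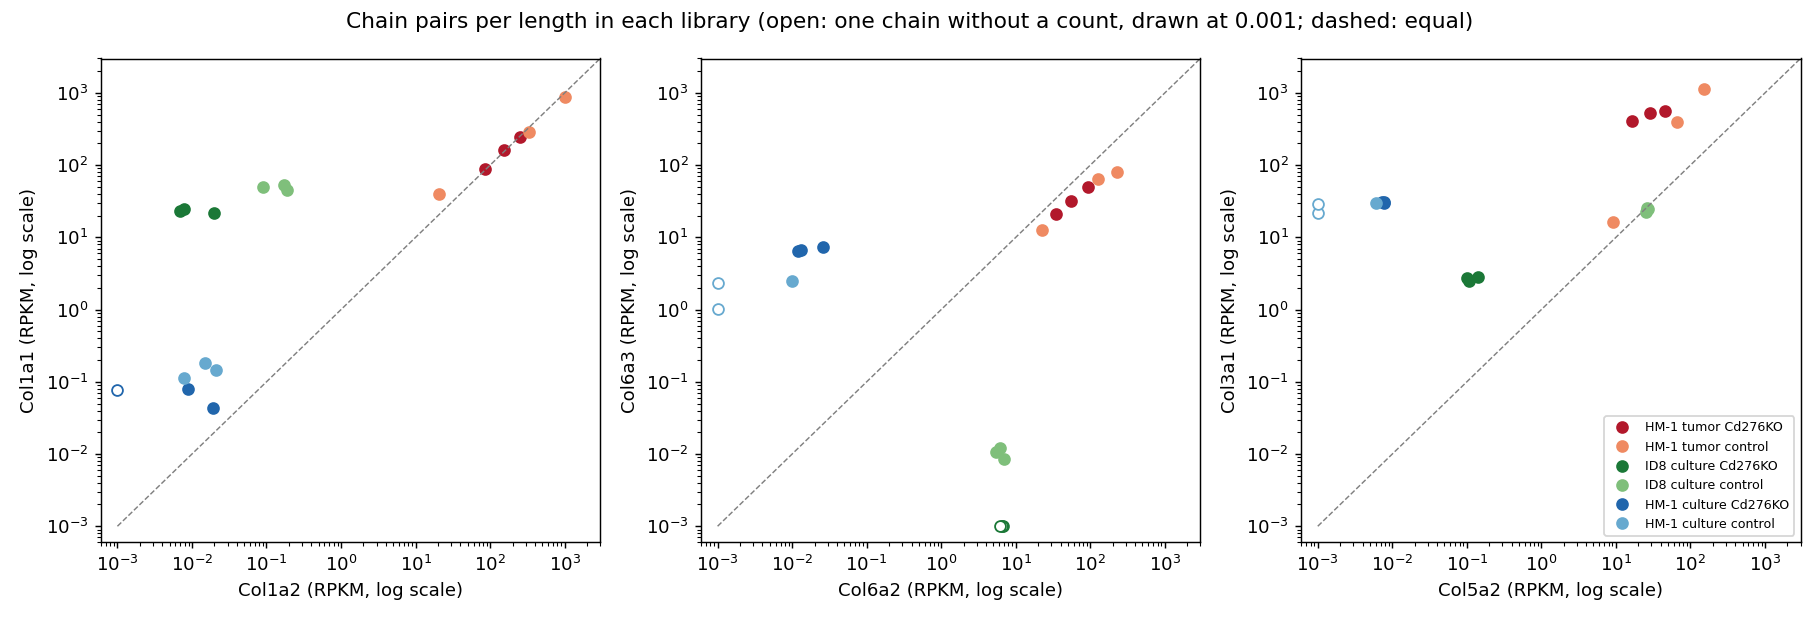
RPKM of one chain against its partner in each library on log axes (Col1a1 against Col1a2, Col6a3 against Col6a2, Col3a1 against Col5a2), with a dashed line of equality and open points at 0.001 where a chain had no count. Tumors lie near the line for type I, between 0.857 and 1.99, ID8 cultures lie above it for type I (243 to 559 times in controls) and below it for Col6a3, and HM-1 cultures lie above it for Col6a3 and Col3a1.

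Other genes of the collagen pathway were counted over 6 lists. The counts below stand against shares over all genes tested of 11.6% higher and 16.1% lower in HM-1 cultures, 29.4% higher and 31.3% lower in ID8 cultures, and 2.2% higher and 3.18% lower in tumors. Among 19 enzymes that modify and fold procollagen chains, 17 were tested in HM-1 cultures, and 1 was higher and 6 lower with the Cd276KO label. In ID8 18 were tested, 2 higher and 9 lower, and in tumors 19 were tested, 1 higher and none lower. The medians of this list were -0.12, -0.15 and -0.10 on the log2 scale, against -0.01, -0.01 and -0.03 for all genes tested. Sparc, a collagen-binding secreted protein, averaged 93.2 ± 3.2 CPM in HM-1 cultures labelled Cd276KO and 249 ± 6 CPM in controls (log2 fold change -1.38, SE 0.07, adjusted p = 4.87e-05). P4ha3, a subunit of prolyl 4-hydroxylase, averaged 0.0390 ± 0.0375 CPM in ID8 cultures labelled Cd276KO and 6.05 ± 0.23 CPM in controls (-7.07, SE 0.34, adjusted p = 2.16e-14). In HM-1 cultures P4ha3 averaged 7.33 ± 0.33 CPM with the label and 12.1 ± 3.2 CPM in controls (-0.69, SE 0.19, adjusted p = 0.0389, up to 0.136 with a library left out). P3h3, a prolyl 3-hydroxylase, was lower in ID8 (-1.79, SE 0.17, adjusted p = 4.78e-09). The collagen galactosyltransferase Colgalt1 was higher in tumors labelled Cd276KO by 0.46 (SE 0.09, adjusted p = 0.0398).

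Of 12 genes that trim procollagen or cross-link it, with the label 3 of 7 tested were lower and none higher in HM-1 cultures, 5 of 10 lower and 2 higher in ID8, and 2 of 10 lower and none higher in tumors. Over all genes, 16.1% were lower in HM-1 cultures, 31.3% in ID8 and 3.18% in tumors, and 29.4% were higher in ID8. Adamts2, which removes the amino-terminal propeptide, averaged 0.283 ± 0.049 CPM in ID8 cultures labelled Cd276KO and 3.03 ± 0.13 CPM in controls (-3.34, SE 0.26, adjusted p = 1.81e-10). Its relative Adamts14 was lower in HM-1 cultures (log2 fold change -2.35, SE 0.23, adjusted p = 0.000628). The lysyl oxidase relative Loxl4 was lower in ID8 (-0.87, SE 0.10, adjusted p = 1.06e-07) and in tumors (-1.06, SE 0.16, adjusted p = 0.026), while Loxl2 was lower in HM-1 cultures (-0.46, SE 0.08, adjusted p = 0.00601). Pcolce2, an enhancer of procollagen cleavage, averaged 14.5 ± 2.4 CPM in tumors labelled Cd276KO and 30.9 ± 4.5 CPM in control tumors (-1.05, SE 0.18, adjusted p = 0.0319).

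Of the fibrillar and type VI chains outside the 10 genes, Col11a1, which co-assembles with type V, averaged 0.0785 ± 0.0453 CPM in ID8 cultures labelled Cd276KO and 4.85 ± 0.38 CPM in controls (-5.83, SE 0.31, adjusted p = 1.49e-13). Both genes of this list tested in ID8 were lower, 1 of 2 tested in HM-1 cultures was higher (Col11a2, 1.09, SE 0.19, adjusted p = 0.00734), and 1 of 7 tested in tumors was lower (Col6a5, -2.30, SE 0.47, adjusted p = 0.0426). Over all genes 31.3% were lower and 29.4% higher in ID8, 11.6% higher and 16.1% lower in HM-1 cultures, and 3.18% lower in tumors. Fibril-associated collagens and proteoglycans divided in ID8, 2 of 4 higher and 2 lower: Dcn, which binds fibrils, averaged 219.8 ± 1.9 CPM with the label and 98.9 ± 0.7 CPM in controls (1.23, SE 0.05, adjusted p = 6.25e-15), and Col12a1 averaged 6.95 ± 1.26 and 28.2 ± 1.7 CPM (-1.93, SE 0.10, adjusted p = 5.8e-13). Col16a1 was lower in HM-1 cultures (-3.75, SE 0.22, adjusted p = 8.67e-05) and in tumors (-1.68, SE 0.36, adjusted p = 0.0483). In this list 2 of 4 tested were lower in HM-1 cultures and 1 of 9 in tumors.

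Of the basement membrane collagens, 5 of 6 tested were lower in ID8, 1 of 4 in HM-1 cultures and 1 of 5 in tumors, with none higher, where 31.3%, 16.1% and 3.18% of all genes were lower. The type IV chain Col4a5 was the 1 gene lower in each: -1.10 in ID8 (SE 0.06, adjusted p = 1.34e-13), -1.68 in HM-1 cultures (SE 0.23, adjusted p = 0.00271) and -1.26 in tumors (SE 0.24, adjusted p = 0.0381). Col4a6, another type IV chain, averaged 43.0 ± 4.1 CPM in ID8 cultures labelled Cd276KO and 111 ± 2 CPM in controls (-1.29, SE 0.07, adjusted p = 9.3e-14). Collagen receptors and uptake genes divided, with 3 of 8 higher and 1 lower in HM-1 cultures, 2 of 8 higher and 3 lower in ID8, and 1 of 11 higher in tumors, where 11.6%, 29.4% and 2.2% of all genes were higher. Antxr2, a receptor that takes up type VI collagen, was higher in HM-1 cultures (0.55, SE 0.14, adjusted p = 0.0258) and in tumors (1.01, SE 0.11, adjusted p = 0.0203), and Mrc2, an endocytic collagen receptor, was higher in ID8 (1.52, SE 0.08, adjusted p = 7.87e-14). The related receptor Antxr1 was higher in HM-1 cultures (0.66, SE 0.12, adjusted p = 0.00972), and the collagen-binding integrin Itga11 was lower in ID8 (-0.94, SE 0.30, adjusted p = 0.00941). With some library left out the HM-1 culture call of Antxr2 and the ID8 call of Itga11 were lost (adjusted p up to 0.0998 and 0.0742), and under some other alternative that of Antxr1 (up to 0.312). Under some alternative the ID8 calls of Dcn, Col12a1 and Mrc2 were lost (adjusted p up to 0.103, 0.0501 and 0.0976). Each tumor call named here was lost on leaving out some library (adjusted p up to 0.137 for Antxr2 and up to 0.209 for Colgalt1).

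**Figure D5:**
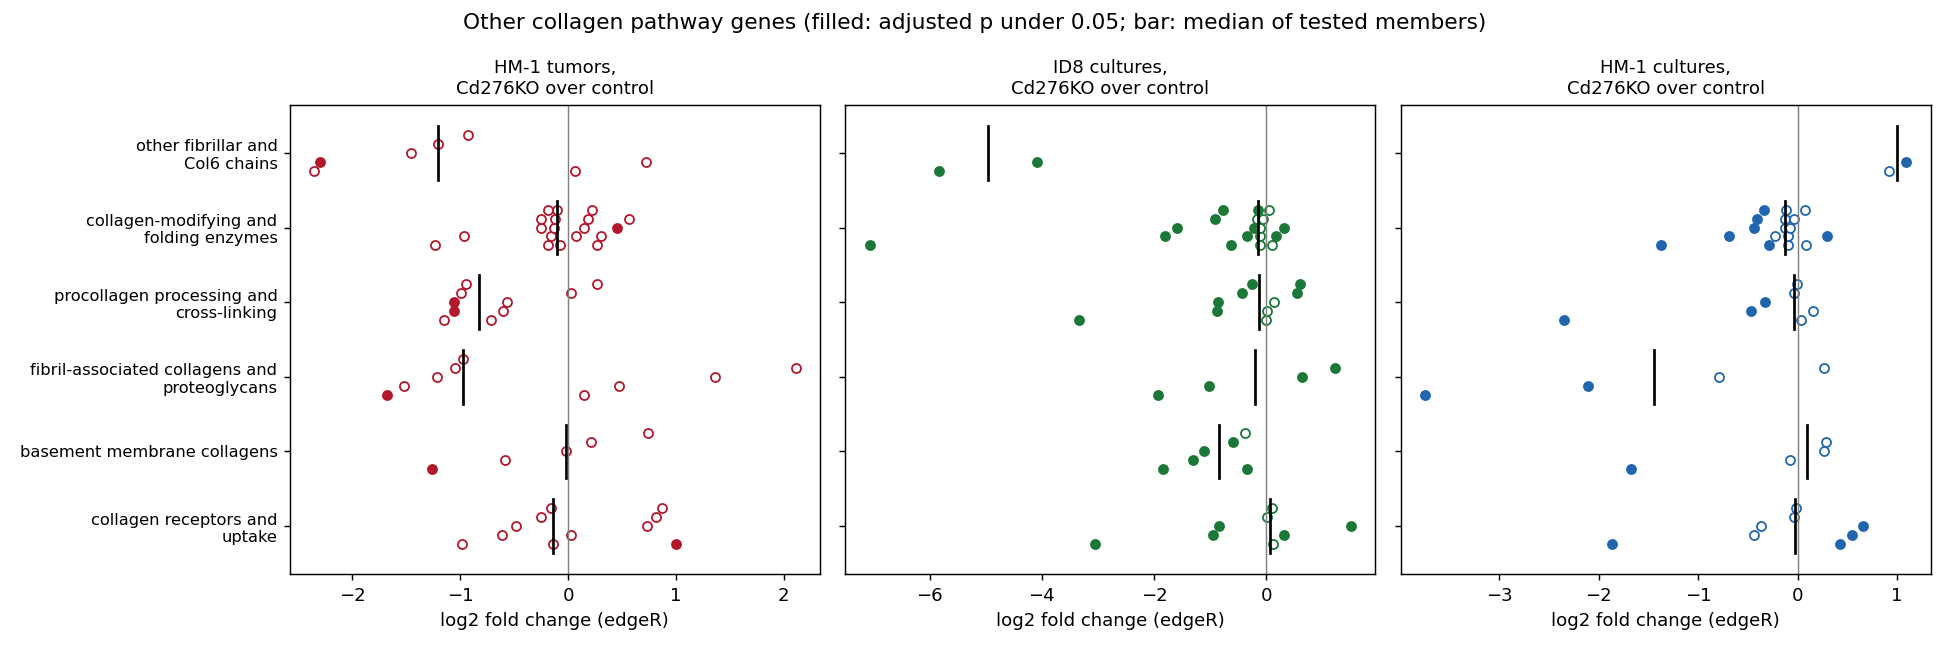
Log2 fold change of each tested gene of the 6 pathway lists, Cd276KO label over control, in HM-1 tumors, ID8 cultures and HM-1 cultures, filled where the adjusted p is under 0.05, with a bar at the median of the tested genes and a separate axis range for each panel. The enzyme medians lie at -0.10, -0.15 and -0.12, and P4ha3 at -7.07 in ID8 lies farthest from 0.

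Over all 18 libraries the protein-coding genes outside the lists most like the mean profile of Col1a1, Col1a2 and Col3a1, among 10280 screened with at least 5 CPM on average, were Mmp2 (Pearson r = 0.988), Islr (0.987), Tmem119 (0.985), Fbn1 (0.985) and Gpx3 (0.977), on log2(CPM + 1). Those most like the mean of Col6a1, Col6a2 and Col6a3 were Pik3cd (0.981), Mmp2 (0.980), Tmem119 (0.979), Zfp260 (0.978) and Gpx3 (0.978). These correlations are a description over libraries that fall into tumors and 2 cultured lines and share their depth with the collagens. Mmp2, a gelatinase, averaged 59.3 CPM in tumors labelled Cd276KO and 138 CPM in control tumors, 1.44 and 4.22 CPM in ID8 cultures with and without the label, and under 0.02 CPM in both HM-1 culture groups.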

How the data were processed

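RNA sequencing libraries from 18 mouse samples in 6 groups of 3 were analysed. Per the labels' protocols, RNA came from cultured cells or excised tumors and libraries followed a standard Illumina procedure. The deposited values were raw read counts per gene, made by the authors with Trim Galore, STAR and HTSeq on GRCm38 (mm10), per the submitters' processing notes, and no version, strand setting or annotation release was stated there. Of 54752 genes, 20189 had no count in any library. Symbols, positions and lengths came from GENCODE M21, which matched 54723 identifiers without their version.

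From the counts, CPM and RPKM (principal transcript length) were computed. Differences were tested with edgeR 4.0.16 in R 4.3.3 (robust quasi-likelihood, TMM scaling, filterByExpr) on the libraries compared, with Benjamini-Hochberg adjustment over all genes tested and a threshold of 0.05. The filter on low counts passed 6 of the 10 genes in HM-1 cultures, 8 in ID8 cultures and 10 in tumors. The SE is the size of the log2 fold change divided by the square root of F. The procedure was tested on simulated data. Alternatives were DESeq2 1.42.0, RLE or library-total scaling, no filter, a fit over all 18 libraries, a replicate block and leaving out each library. Exon-union length was added after the data were seen.

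Pathway genes were named by rule: in each label comparison, the 2 called genes of a list with the largest fold changes and a mean of at least 1 CPM. The 10 genes and the lists were chosen with earlier results of these data known. Each library counted as 1 replicate. Libraries differed from each other by more than sampling noise (lowest chi-square per gene 1.57), which does not show that they came from separate cultures or mice.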

Additional observations from a re-analysis of the deposited data

Results flagged for a closer look

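A tested difference between 2 label effects picked out 5 results, on the log2 scale and with edgeR's quasi-likelihood test and Benjamini-Hochberg adjustment. Between HM-1 tumors and HM-1 cultures it was Col5a3, with a difference of 2.68 (SE 0.46, adjusted p = 0.0105): the Cd276KO label went with -0.93 in tumors and -3.62 in cultures. Leaving out each library in turn gave 2.41 to 2.97.

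Between ID8 and HM-1 cultures it was Col5a2 (-9.24, SE 1.19, adjusted p = 5.53e-05), Col3a1 (-3.33, SE 0.15, adjusted p = 6.73e-09), Col5a1 (-2.56, SE 0.21, adjusted p = 9.46e-07) and Col6a1 (2.39, SE 0.49, adjusted p = 0.00186). In a fit over all 18 libraries Col3a1 kept its call (adjusted p = 0.0333), and Col5a1, Col5a2 and Col6a1 lost it (0.0537, 0.322 and 0.305). Col5a2 had 4 counts over the HM-1 cultures and Col6a1 had 7 over those labelled Cd276KO, so the HM-1 side of both differences is imprecise.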

How the results depend on the processing

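Depth limits the low genes: several chains had 5 counts or fewer over a culture group. Tumor results are limited by 3 tumors a group that differed widely. For single genes and chain ratios, 411 values under other settings and 520 with a library left out stayed the same. For genes this means the same direction and side of the threshold. Under other settings 19 lost a call, 9 gained one and 6 changed sign. A further 9, all means of chain ratios in tumors, moved by their SD or more with the exon-union length. With a library left out 13 lost a call, 8 gained one and 23 changed sign.

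The fit over all 18 libraries called 2 of the 10 genes in HM-1 cultures (4 otherwise), 3 in ID8 (6), 1 in tumors (0) and 1 for the difference between lines (4). Over all genes it called 4260 in ID8 (7849), 4001 in tumors (826), 9974 between control tumors and cultures (6107) and 848 for tumors minus cultures (443). DESeq2 called 1 of the 10 genes and 2270 of all genes in tumors, and 898 for tumors minus cultures. The replicate numbers only name the libraries: deviations of same-numbered libraries correlated with r from -0.66 to 0.37. With them as a replicate block, no gene was called in tumors (0, against 826), Lox there was 0.10, and for tumors minus cultures Col1a1, Col1a2, Col3a1 and Lox were 0.58, 0.22, 0.11 and 0.012. In HM-1 cultures the block ended the calls of Col6a1 and Col1a1 (adjusted p = 0.0506 and 0.0582) and gave one to Col5a1 (0.0433). With library-total scaling Col3a1 in tumors was -0.054. Over all genes the median log2 difference between control tumors and cultures was 0.05, 0.20 with library-total scaling and 0.43 with DESeq2. The causes were not tested.

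Leaving out 1 library gave 2 to 6 of the 10 genes and 1725 to 7491 of all genes in HM-1 cultures, 0 to 1685 of all genes in tumors, and 1 to 2 of the 10 genes and 225 to 913 of all genes for tumors minus cultures. Uncalled log2 values that changed sign ranged in tumors from -1.77 to 0.056 (Col1a1), -0.55 to 1.33 (Col3a1), -1.45 to 0.18 (Col5a1) and -1.63 to 0.48 (Lox). For tumors minus cultures they ranged from -0.76 to 1.14 (Col1a1), -1.52 to 0.45 (Col1a2), -0.83 to 1.11 (Col3a1), -0.95 to 0.74 (Col5a1) and -3.08 to 0.76 (Lox), and for ID8 minus HM-1 from -0.18 to 0.21 (Col1a1), -0.49 to 1.57 (Col5a3) and -3.27 to 0.84 (Lox).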
